A study of Mus musculus with 10 samples.

Results

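The tissue kallikrein genes of the mouse, Klk1 and the Klk1b genes, were examined in tuft cells and non-tuft epithelial cells of the inflamed pancreas. Members were taken by name, as every gene of the deposited table called Klk1 or Klk1b followed by a number. This gave 8 genes of 12160 in the table, namely Klk1, Klk1b3, Klk1b4, Klk1b5, Klk1b8, Klk1b11, Klk1b24 and Klk1b27. The annotation of NCBIM37, the mouse assembly also called mm9, holds 14 genes of the cluster, and Klk1b1, Klk1b9, Klk1b16, Klk1b21, Klk1b22 and Klk1b26 were not analysed here. None of the 12 more distant kallikrein genes from Klk4 to Klk15 were analysed here either, so the name rule took in no gene of that kind.

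All 10 libraries came from wild-type male mice with pancreatitis induced by caerulein, a cholecystokinin analog that injures acinar cells. The labels give the strain both as CD1 and as Mixed, and no age is given in the sources used here. Cd45-negative, EpCAM-positive cells were sorted on Siglec F, a surface lectin carried by tuft cells. The 5 tuft libraries hold Siglec F-positive cells and the 5 non-tuft libraries Siglec F-negative cells, both from 5 mice, with 100 cells per library amplified by Smart-Seq2, a full-length cDNA method for very small inputs. The non-tuft gate takes all other epithelium together, so acinar, ductal and islet cells can all be in it, and there were no libraries from uninjured pancreas. In pools of this kind, fewer cells of a type and less RNA per cell cannot be told apart.

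Tissue kallikrein is a secreted serine protease that cuts kininogen to release kinins, short peptides that dilate vessels, raise vascular permeability and excite sensory nerves through the bradykinin receptors. It is made as an inactive zymogen, known mainly from salivary gland ducts, kidney and pancreatic acinar cells, and is activated when a short amino-terminal peptide is removed. Rodents carry many further copies of the gene, the Klk1b genes, whose products process growth factors and hormones. The product of Klk1b4 has lost protease activity.

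The 14 genes lie in 1 block of 279 kb on chromosome 7 (NCBIM37, 51206034 to 51484987), all on the plus strand. Klk1 is the last gene at 51480807 to 51484987, and Klk1b5 (51471844 to 51476073), Klk1b4 (51462805 to 51467124) and Klk1b3 (51453561 to 51457721) start 9.0, 18.0 and 27.2 kb before it. Klk1b24 (51443606 to 51447822) comes next, with its start 37.2 kb from that of Klk1. The remaining listed members are far apart, with Klk1b27 (51307660 to 51312075) at 173.1 kb, Klk1b11 (51251247 to 51255245) at 229.6 kb and Klk1b8 (51206034 to 51210311) at 274.8 kb.

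The copies are close in sequence, which matters for what a short read can tell apart. Over the aligned coding sequence, Klk1 and Klk1b5 were identical at 95.2% of positions, Klk1 and Klk1b4 at 89.8%, and Klk1 and Klk1b3 at 88.5%. The coding sequence is 786 bases in Klk1, Klk1b5 and Klk1b3 and 771 bases in Klk1b4. The stretch in which Klk1b4 differs in length is shown for these 4 genes, coding bases 56 to 124 (56 to 109 in Klk1b4), read from the NCBIM37 transcripts. Capitals mark the bases between the start that all 4 share and the TCCCA that all 4 share, in the region where the zymogen is cut. This stretch is 32 bases in Klk1, Klk1b5 and Klk1b3 and 17 bases in Klk1b4. Which of its bases are missing from Klk1b4 is not fixed by an alignment, since ACTGTGAGA stands in Klk1 and Klk1b5 as well as in Klk1b4.
Klk1: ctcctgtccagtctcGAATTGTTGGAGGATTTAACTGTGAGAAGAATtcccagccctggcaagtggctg
Klk1b5: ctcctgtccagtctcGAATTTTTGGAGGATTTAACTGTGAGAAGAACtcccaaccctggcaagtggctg
Klk1b4: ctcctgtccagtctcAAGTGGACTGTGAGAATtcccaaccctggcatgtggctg
Klk1b3: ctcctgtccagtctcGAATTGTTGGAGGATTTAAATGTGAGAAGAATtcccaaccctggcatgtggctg

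Of all 50-base windows of the Klk1 transcript, the length of the reads, 31.1% also occurred in another gene of the cluster, most often in Klk1b5 (20.6%). The share was 28.2% for Klk1b5, 21.3% for Klk1b4 and 17.5% for Klk1b3, and among the 8 listed members it ranged from 10.4% for Klk1b11 to 32.2% for Klk1b24. No window was shared with a protein-coding transcript outside the cluster. How reads that fit several copies were assigned is not given in the sources used here, so the level of each copy is uncertain to the extent that reads from these windows could be placed on the wrong one. Among annotated protein-coding transcripts, the other windows fit a single copy. Transcripts of pseudogenes and noncoding genes were not searched.

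Values are log2(RPKM + 1) after quantile normalization, where RPKM is a read number corrected for gene length and library size. The lowest value in a library, given to genes with no signal, is called the floor. It was 0.17 in library 2 of the non-tuft group and 0 in the other 9 libraries. The authors kept only genes whose RPKM varied across the libraries, so a member that was high in just 1 group had to differ. The table holds no read counts, so sequencing depth is unknown and expression of a gene at the floor cannot be bounded from above. Non-tuft library 2 had the most genes at the floor (3753, against 1442 to 2395 in the other non-tuft libraries and 1538 to 2764 in the tuft libraries).

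The first question was which kallikrein genes differ between tuft cells and the rest of the epithelium. Klk1 and its 3 nearest neighbors, Klk1b5, Klk1b4 and Klk1b3, were lower in tuft cells, and no member was higher. A gene was called when limma's moderated test across all listed genes gave a Benjamini-Hochberg adjusted p under 0.05 and the fold change was over 4. By this rule 4 of 8 members were called lower, against 485 of 12160 listed genes (3.99%), and 0 of 8 were called higher, against 525 listed genes (4.32%). At an unadjusted p under 0.05 in limma, 6 members were lower and 0 higher. The median difference in log2 level, tuft minus non-tuft, was -3.46 over the 8 members and 0.02 over all listed genes. For 5 of the 8 members no tuft library had a value above 0, among them Klk1b3, Klk1b8 and Klk1b11. Only their non-tuft values could bring such genes past the variance filter, so they could only come out lower. The member counts and the median include them, so no enrichment over all listed genes is read from these. The 4 called members stayed called with each library left out in turn, non-tuft library 2 included. When the fold change itself was tested against 4 with limma's treat, 1 member, Klk1b4, remained called.

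**Figure D1:**
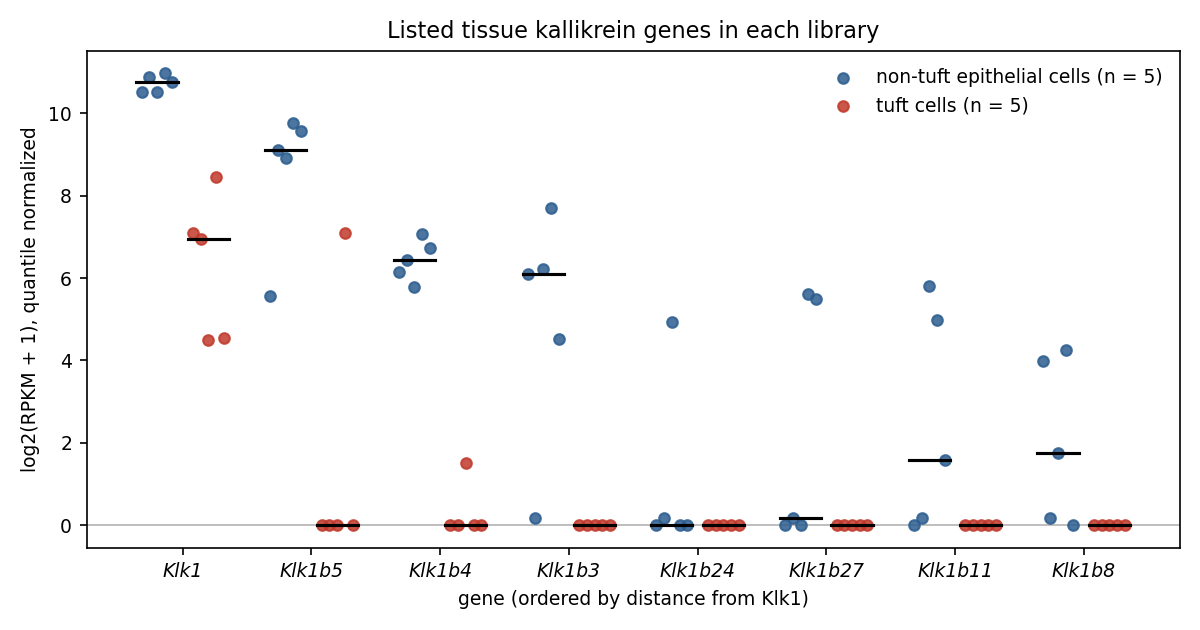
Level of the 8 listed tissue kallikrein genes in each library, on the quantile normalized log2(RPKM + 1) scale, with genes ordered by distance from Klk1. Each point is a library, blue for non-tuft epithelial cells and red for tuft cells (5 each), and black bars are group medians. Tuft values of Klk1 lie between 4.49 and 8.45, all below the non-tuft values, while 5 genes are at 0 in all tuft libraries.

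Klk1, tissue kallikrein itself, was listed at 10.52, 10.87, 10.52, 10.97 and 10.75 in non-tuft libraries 1 to 5. In tuft libraries 1 to 5 it was at 7.09, 6.95, 4.49, 8.45 and 4.54. The groups did not overlap, and the tuft libraries spread over a far wider range than the non-tuft libraries, with library 4 the highest and libraries 3 and 5 the lowest. The means were 10.73 ± 0.21 (SD, n = 5 libraries) in non-tuft cells and 6.30 ± 1.74 (SD, n = 5 libraries) in tuft cells. This is a log2 fold change of -4.42 (SE 0.69, 95% interval -5.92 to -2.93, adjusted p = 0.00112 by limma's moderated test), a level 21.4 times higher in non-tuft cells. A two-sided exact permutation test of all 252 ways to divide the libraries gave p = 0.00794, the smallest that 5 against 5 allows. With treat the call of Klk1 was lost (adjusted p = 0.144, limma).

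Among all listed genes Klk1 ranked between 32 and 39 in the non-tuft libraries by level, so it was one of the most abundant transcripts there. Its rank in the tuft libraries was 442, 487, 2576, 160 and 2499. Returned to the linear scale, the normalized RPKM of Klk1 ran from 1467 to 2010 in non-tuft cells and from 21.4 to 349 in tuft cells. Klk1 was above the floor in all 10 libraries, and it was the only member for which this was so.

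Klk1b5, the member most like Klk1 in sequence, had non-tuft values of 5.56, 9.10, 8.92, 9.76 and 9.57. It was at 0 in tuft libraries 1, 2, 3 and 5 and at 7.10 in tuft library 4. The groups overlapped, because tuft library 4 was above non-tuft library 1. The fitted log2 fold change was -7.16 (SE 1.30, 95% interval -9.98 to -4.35, adjusted p = 0.00312 by limma's moderated test; exact permutation test, p = 0.0159). With 4 tuft values at the floor its size depended on the constant added before taking log2, from -9.82 with 0.1 added to -4.56 with 10 added. It was -8.58 without tuft library 4 and -7.92 without non-tuft library 1, and it ranged from -8.58 to -6.81 with each library left out. Tested against a fold change of 4 with treat, it was not called (adjusted p = 0.0798, limma).

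Klk1b4, whose product is not an active protease, was at 6.15, 6.43, 5.78, 7.07 and 6.72 in the non-tuft libraries. Of the tuft libraries, 4 had it at 0 and library 3 at 1.52. The groups were far apart and each was narrow, the tuft group with 4 of 5 values at the floor. Its spread may therefore be understated, and with it the SE, the p from limma and the result of treat. Klk1b4 had the smallest p of the 8 members, and its fitted log2 fold change was -6.13 (SE 0.44, 95% interval -7.07 to -5.18, adjusted p = 3.50e-06 by limma's moderated test; exact permutation test, p = 0.00794). This size too depends on the added constant, from -8.88 with 0.1 added to -3.21 with 10 added. Klk1 and Klk1b4 were the 2 of 8 members whose tuft values all lay below their non-tuft values, against 589 listed genes (4.84%) with floor values taken as 0.

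Klk1b3 was at 6.10, 6.21, 7.69 and 4.52 in non-tuft libraries 1, 3, 4 and 5 and at the floor in non-tuft library 2. All 5 tuft libraries listed it at 0, so no fold change is given. The adjusted p was 0.00805 by limma's moderated test, and the exact permutation test gave p = 0.0476. Without non-tuft library 2 the adjusted p fell to 7.31e-05 (limma), and with any other library left out it was at most 0.0301. Against a fold change of 4 it was not called by treat (adjusted p = 0.374, limma).

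The other 4 members were detected in only some of the non-tuft libraries, were at 0 in all tuft libraries, and were not called. Klk1b8 had non-tuft values of 3.97, 0.17, 1.74, 4.26 and 0 (adjusted p = 0.120, limma). Klk1b11 reached 5.81 in non-tuft library 3, 4.99 in library 4 and 1.57 in library 5 and was at the floor in libraries 1 and 2 (adjusted p = 0.137, limma). Klk1b27 was above the floor only in non-tuft libraries 4 and 5, at 5.61 and 5.50 (adjusted p = 0.225, limma). Klk1b24 was above it only in non-tuft library 3, at 4.93 (adjusted p = 0.496, limma). With Klk1b3, this makes 5 of 8 members at the floor in every tuft library, against 559 listed genes (4.6%). A gene of this kind passed the authors' variance filter only through its non-tuft values, so no conclusion is drawn from this count. These genes had signal in some pools of 100 cells and none in others. Klk1b8 and Klk1b11 had an unadjusted p of 0.0216 and 0.0269 (limma).

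The order of levels within the non-tuft libraries was Klk1, then Klk1b5, then Klk1b4 and Klk1b3. Klk1 was above Klk1b5 in 5 of 5 libraries and Klk1b5 above Klk1b4 in 4 of 5, the exception being non-tuft library 1. Klk1b4 was above Klk1b3 in 3 of 5, so these neighbors in the order did not separate beyond the spread between libraries. The 4 called genes are the 4 adjacent genes at the Klk1 end of the cluster, while the next gene, Klk1b24, was at the floor in 4 of 5 non-tuft libraries.

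**Figure D2:**
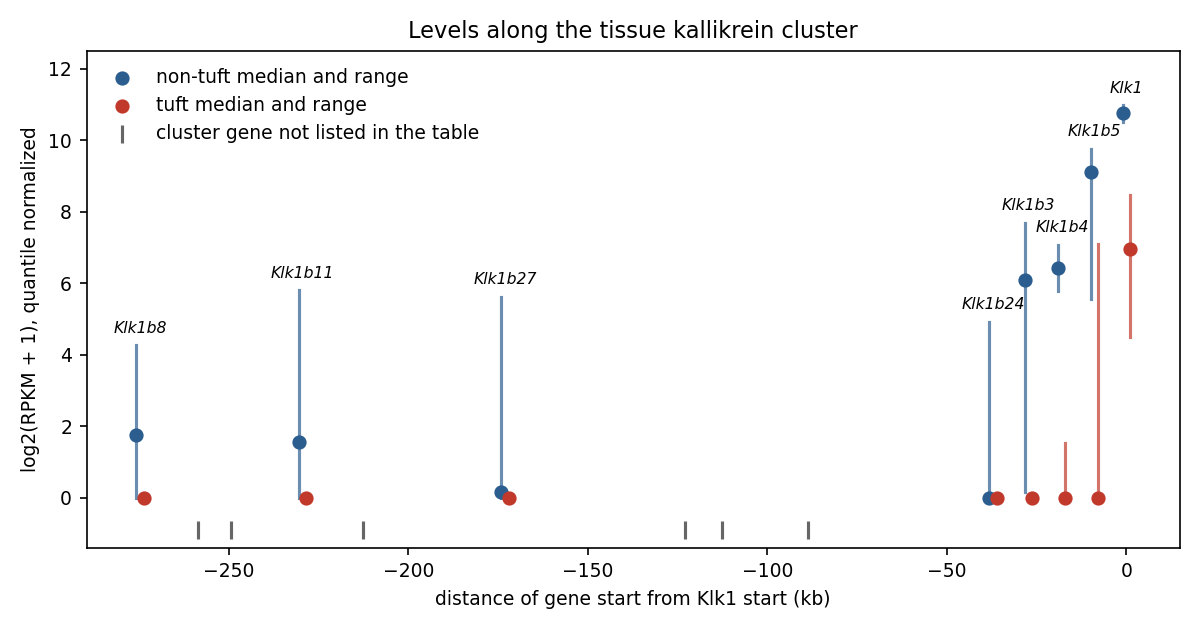
Median (points) and range (lines) of the log2(RPKM + 1) level of each listed member in non-tuft (blue) and tuft (red) libraries, 5 each, against the distance of its start from the start of Klk1 in kb. Ticks under the axis value 0 mark the 6 cluster genes that were not analysed. The highest medians lie within 27.2 kb of Klk1, and the tuft medians are at 0 for every gene but Klk1.

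Klk1 made up most of the signal of the cluster in every library. Summed over the 8 members on the linear scale, normalized RPKM ran from 1665 to 3315 in non-tuft cells and from 22.2 to 485 in tuft cells. The share of Klk1 in this sum was 88.1%, 74.7%, 67.7%, 60.6% and 64.9% in non-tuft libraries 1 to 5. In the tuft libraries it was 100% in 3 of 5, 92.0% in library 3 and 72.0% in library 4, where Klk1b5 made up the other 28.0%. Tuft library 4 was thus the tuft library with the highest Klk1, the highest summed level and the only one with Klk1b5.

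The log2 level of Klk1b5 relative to Klk1 in the same library was -1.77, -1.59, -1.21 and -1.18 in non-tuft libraries 2 to 5 and -1.36 in tuft library 4. Non-tuft library 1 was apart at -4.96, with a Klk1 level like that of the other non-tuft libraries. Klk1b4 relative to Klk1 lay between -4.74 and -3.90 in the non-tuft libraries. In tuft library 4 Klk1b4 was at 0, which is 8.45 below Klk1 on this scale, and in tuft library 3 it was 2.97 below Klk1. The members therefore did not keep a fixed ratio to Klk1 in the tuft libraries, and values at the floor limit what such ratios can show.

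The second question was how Klk1 compares with other products of acinar cells in the same libraries, since the secretory enzymes of the pancreas also differed between the groups. Of 31 listed acinar secretory genes (digestive enzymes and granule proteins), 24 were called lower and 0 higher, with a median log2 fold change of -4.53. Over all listed genes the shares called were 3.99% lower and 4.32% higher. For 21 of the 31 acinar genes every tuft library was below every non-tuft library, against 4.84% of all listed genes. At an unadjusted p under 0.05 in limma, 31 acinar genes were lower and 0 higher. Their summed linear level ran from 1.73e+05 to 2.26e+05 in non-tuft cells and from 2452 to 1.48e+05 in tuft cells. Tuft library 5 had the lowest sum and tuft library 4 the highest. The part of acinar RNA in the tuft libraries in the Klk1 values there was not tested.

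The median log2 level of the 31 acinar genes was 11.75, 11.96, 10.87, 11.75 and 11.57 in the non-tuft libraries and 8.07, 8.44, 6.20, 9.25 and 3.89 in the tuft libraries. Klk1 minus this median was -1.23, -1.09, -0.35, -0.78 and -0.82 in the non-tuft libraries. The same quantity was -0.99, -1.49, -1.71, -0.80 and 0.65 in the tuft libraries, with tuft library 5 the only one in which Klk1 was above the acinar median. The group difference in this quantity was -0.01 on the log2 scale (exact permutation test, two-sided, p = 0.992), with a 95% interval from -0.88 to 0.99 obtained by inverting that test. A difference of up to about 1 on the log2 scale in either direction is therefore compatible with these libraries. Without tuft library 5 the difference was -0.39, and with tuft library 3 left out it was 0.20.

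**Figure D3:**
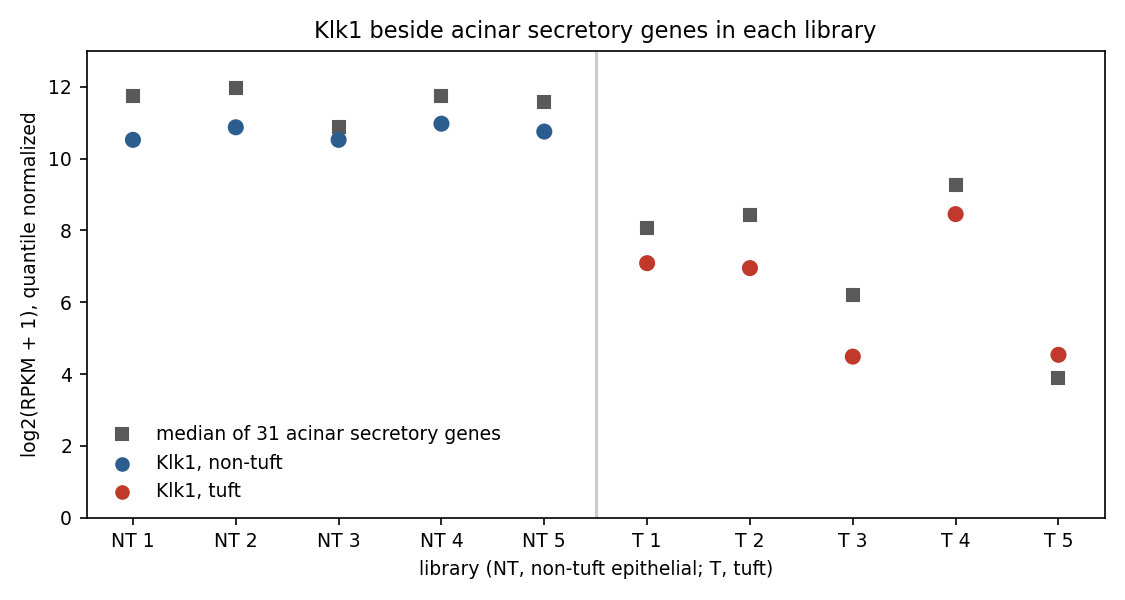
Level of Klk1 (circles, blue in non-tuft and red in tuft libraries) and the median of 31 acinar secretory genes (grey squares) in each of the 10 libraries, as quantile normalized log2(RPKM + 1). Both are high in every non-tuft library, and in the tuft libraries both are highest in library 4, at 8.45 and 9.25.

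Within the acinar list, 17 genes had a larger fall than Klk1 and 14 a smaller one. The largest was that of Cuzd1, a zymogen granule membrane protein, which was at 8.45 to 10.68 in non-tuft and 0.64 to 4.62 in tuft cells (log2 fold change -6.28, standard error 0.71, adjusted p = 1.06e-04 by limma). The smallest was that of Reg1, a secreted lectin of acinar cells, at 13.61 to 14.43 in non-tuft and 9.63 to 13.44 in tuft cells (log2 fold change -2.12, standard error 0.62, adjusted p = 0.0422 by limma). Of the 9 acinar transcription factor genes, 4 were called lower (Ptf1a, Rbpjl, Bhlha15 and Nr5a2) and 0 higher, against 3.99% and 4.32% of all listed genes. The counts were the same at an unadjusted p under 0.05 in limma. The log2 fold changes were -4.51 for Ptf1a, -5.25 for Rbpjl, -3.79 for Bhlha15 and -2.60 for Nr5a2, while the other 5, Gata4, Gata6, Rbpj, Mecom and Xbp1, ran from -1.10 to 0.10. Ptf1a and Rbpjl thus had fitted falls of at least the size of that of Klk1, with 3 of 5 tuft libraries at the floor for each. Against the median of all 9 factors, Klk1 differed between the groups by -2.34 on the log2 scale (95% interval -4.04 to -0.63, exact permutation test, p = 0.0397). With same-numbered libraries taken as pairs, the 5 differences ran from -4.39 to 0.33, with 4 of 5 below 0. An exact sign-flip test over them gave p = 0.125. Since 5 pairs allow no p below 0.0625, this test could not reach 0.05. It cannot decide whether the difference holds under pairing.

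The genes with profiles most like that of Klk1 were found by the root mean square difference between log2 values centered on each gene's mean, over the 10 libraries. The nearest included Rhou, a small GTPase gene (0.54), and Ambp, the precursor of alpha-1-microglobulin and bikunin (0.59). Their log2 fold changes were -4.20 and -5.17. For Klk1b4 the nearest were Cbs, cystathionine beta-synthase (0.59), Sdpr (0.68) and 1810053B23Rik (0.70). The other members were not among the nearest to Klk1, since Klk1b4 ranked 322nd, Klk1b3 1817th and Klk1b5 2342nd by likeness to it. These ranks depended on the starting gene. Klk1 ranked 19th by likeness to Klk1b5, 98th to Klk1b4 and 196th to Klk1b3, while Klk1b5 ranked 6296th by likeness to Klk1b3. The values were not scaled, so a larger fold change alone sets a gene apart. For Klk1b5 the nearest were Reg3a (1.39), Serpina6 (1.56) and Lcn2 (1.74). Klk1b3 was nearest to Ube2c (0.96), Tm4sf1 (1.05) and Fam229b (1.07). The distance grows with the variance of the member, so it is not comparable between members, and all 10 points share the group difference.

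The promoters of the 4 called members are shown because these genes were lower in tuft cells together. Each is the 150 bases before the annotated transcript start in NCBIM37, and capitals mark TTTAAA, the TATA-like motif present in all of them.
Klk1 (chr7:51480657-51480806, plus strand): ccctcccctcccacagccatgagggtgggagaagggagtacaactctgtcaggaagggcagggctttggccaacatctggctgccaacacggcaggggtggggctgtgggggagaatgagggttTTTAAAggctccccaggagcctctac
Klk1b5 (chr7:51471694-51471843, plus strand): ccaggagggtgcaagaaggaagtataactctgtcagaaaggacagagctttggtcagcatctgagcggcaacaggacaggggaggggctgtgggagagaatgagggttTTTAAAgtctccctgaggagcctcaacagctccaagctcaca
Klk1b4 (chr7:51462655-51462804, plus strand): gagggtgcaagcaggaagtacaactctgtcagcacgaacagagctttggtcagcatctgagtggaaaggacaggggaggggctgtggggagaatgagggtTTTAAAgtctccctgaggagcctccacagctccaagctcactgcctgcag
Klk1b3 (chr7:51453411-51453560, plus strand): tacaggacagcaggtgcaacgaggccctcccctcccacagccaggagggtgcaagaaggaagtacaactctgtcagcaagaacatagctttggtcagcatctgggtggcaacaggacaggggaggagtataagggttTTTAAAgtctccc

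TTTAAA was found in this window in 8 of 8 listed members and 12 of 14 cluster genes, and in 1438 of 22354 protein-coding genes (6.43%). The cluster genes are related copies, so these are not independent occurrences, and no enrichment is read from the counts. It reads the same on both strands. The motif ended 20, 36, 44 and 7 bases before the annotated start in Klk1, Klk1b5, Klk1b4 and Klk1b3. These distances follow the annotation, which need not mark the true start. Listed members that were not called carried the motif too, so it did not separate the genes that differed from those that did not. The canonical TATAAA was found in 0 of 14 windows (7.88% of all genes). Of motifs bound by acinar transcription factors, CACCTG was found in 1 of 8 listed members (Klk1b3; 10.4% of all genes), TTCCCA in 2 of 8 (Klk1b27 and Klk1b24; 12.7%) and CAAGGTCA in 0 of 14 cluster genes (0.635%), each searched on both strands.

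Within 500 kb on either side of the cluster there were 17 listed protein-coding genes, of which 0 were called lower and 1 higher. Over all listed genes the shares called were 3.99% lower and 4.32% higher, so these counts are near those shares. The log2 fold changes of the 17 genes ran from -1.18 to 4.93, with a median of 0.43. At an unadjusted p under 0.05 in limma, 1 was lower and 4 were higher. The nearest, 1700028J19Rik, lies 0.3 kb after the cluster and differed by -0.37 on the log2 scale (adjusted p = 0.853, limma). The next, 2410002F23Rik at 17.1 kb, had -1.06 (adjusted p = 0.0718, limma). The gene called higher was Spib, an Ets family transcription factor 296.4 kb after the cluster (4.93, adjusted p = 0.00248, limma).

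The third question was whether the substrates, inhibitors and peptidases around tissue kallikrein differed as well. Of 27 kinin system genes fixed as a list, 18 were listed, of which 4 were called lower, 2 higher and 12 neither. The shares of all listed genes called were 3.99% lower and 4.32% higher. Their log2 fold changes had a median of -0.74. The bradykinin receptor genes Bdkrb1 and Bdkrb2 and the plasma kallikrein gene Klkb1 were not analysed here.

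Kininogen, the substrate, was near the floor in both groups. Kng1 was above the floor in non-tuft library 5 alone, with 2.34. Kng2 was at 2.15, 0.98 and 1.13 in non-tuft libraries 3, 4 and 5. Both were at 0 in all tuft libraries, and neither was called (adjusted p = 0.567 and 0.233, limma). Serping1, the C1 inhibitor that blocks plasma kallikrein, ranged from 0 to 7.20 in non-tuft and from 0 to 4.93 in tuft libraries and was not called (adjusted p = 0.466, limma). It was highest in library 5 of each group.

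Enzymes that trim or destroy kinins were called in both directions. Cpm, a membrane-bound carboxypeptidase that removes the terminal arginine of kinins, was at 4.14, 0.17, 2.28, 4.08 and 3.14 in the non-tuft libraries. Its tuft values were 7.51, 6.55, 7.27, 7.04 and 7.54. Every tuft library was above every non-tuft library, and the difference was 4.42 on the log2 scale (standard error 0.67, limma adjusted p = 9.79e-04; exact permutation test, p = 0.00794). Cpn1, the catalytic subunit of the circulating carboxypeptidase N with the same cleavage, went the other way, at 3.24, 4.17, 5.91, 3.42 and 4.36 in non-tuft and 3.38, 1.88, 1.76, 0 and 0.69 in tuft libraries. The groups overlapped at tuft library 1, and the difference was -2.68 on the log2 scale (SE 0.67, limma adjusted p = 0.0186).

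Prcp, a lysosomal prolylcarboxypeptidase, had non-tuft values of 1.44, 0.17, 2.00, 0.50 and 2.73. Its tuft values were 4.15, 3.91, 3.93, 3.35 and 3.92, without overlap (log2 fold change 2.48, standard error 0.50, adjusted p = 0.00557 by limma). Anpep, the membrane aminopeptidase N, had non-tuft values of 4.35, 4.82, 4.48, 5.35 and 4.26. Its tuft values were 1.84, 1.33, 0.33, 1.05 and 0.34, all below the non-tuft values (log2 fold change -3.67, standard error 0.42, adjusted p = 1.18e-04 by limma).

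Dpp4 and Mme were both listed at 0 in all tuft libraries. Dpp4, a membrane dipeptidyl peptidase, was at 5.70, 6.75, 6.11, 5.16 and 3.39 in the non-tuft libraries (adjusted p = 4.96e-05, limma). Mme, or neprilysin, which degrades bradykinin, was at 4.13, 2.78, 0.45, 2.99 and 1.50 there (adjusted p = 0.0190, limma). The angiotensin-converting enzyme gene Ace, the main kininase of vessel walls, was not called (adjusted p = 0.536, limma), nor was Ece1, an endothelin-converting enzyme that also cleaves bradykinin (log2 fold change -1.17, adjusted p = 0.101, limma). The peptidases thus held members that were higher and members that were lower in tuft cells.

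**Figure D4:**
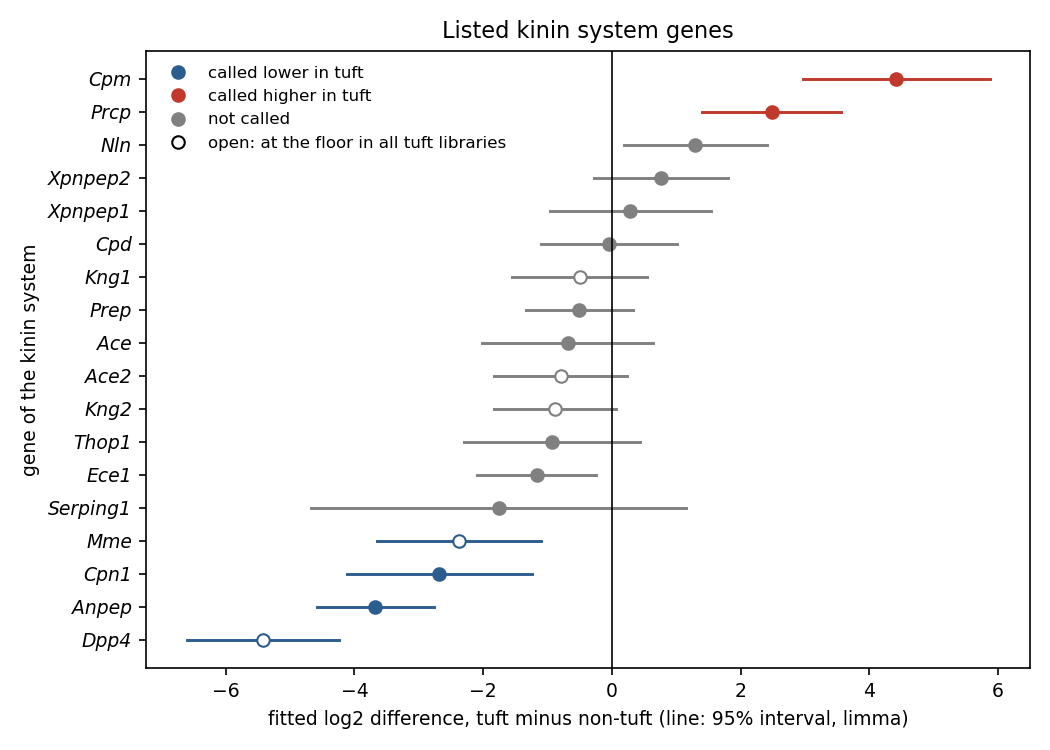
Fitted log2 difference, tuft minus non-tuft, of the 18 listed kinin system genes, with 95% intervals from limma. Blue points were called lower, red points higher and grey points neither, and open points mark genes at the floor in all 5 tuft libraries, whose size depends on the constant added before log2. Cpm at 4.42 and Prcp at 2.48 are the genes called higher.

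Of 10 partners of the Klk1b products fixed as a list, 7 were listed and 0 called in either direction. This count is near the shares of all listed genes called, 3.99% lower and 4.32% higher. At an unadjusted p under 0.05 in limma, 1 partner was lower and 2 were higher. Agt, angiotensinogen, was at 3.33, 0.17, 4.64, 5.29 and 4.47 in non-tuft and 5.29, 4.79, 7.17, 6.11 and 5.94 in tuft libraries (log2 fold change 2.28, standard error 0.84, adjusted p = 0.105 by limma). Ngfr, the low-affinity neurotrophin receptor, differed by 1.06 on the log2 scale (adjusted p = 0.195, limma). The receptor gene Egfr and the growth factor gene Egf were not analysed here.

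The sort and the make-up of the libraries were checked by markers. Siglecf had tuft values of 5.62 to 7.52 and reached 1.61 in 1 non-tuft library, with the other 4 at 0, and 23 of 23 listed tuft markers were called higher. That list holds Siglecf, on which the cells were sorted, and was chosen with earlier results of these data known. The count is therefore not an independent check. Dclk1 was at 10.68 to 12.73 in tuft and 0 to 8.47 in non-tuft cells. The study reports that Dclk1 is higher in tuft cells but also expressed by other cells of the injured pancreas. Whether the Dclk1 signal of the non-tuft libraries came from tuft cells was not tested. Krt19 was not called (adjusted p = 0.465, limma). Epcam was higher in tuft cells (9.19 to 10.87, against 7.44 to 9.08 in non-tuft cells; adjusted p = 0.0329, limma) and missed the call only because its log2 difference of 1.72 is under the fold threshold. Ductal markers had 4 of 15 listed genes called lower and 0 higher, and islet markers 5 of 19 lower and 0 higher. Fibroblast and endothelial markers had 0 of 8 in either direction. Their summed linear level was 754 in non-tuft library 5 and 254 in tuft library 5, against at most 23.1 in any other library. Over all listed genes the shares called were 3.99% lower and 4.32% higher, so 0 of 8 is near those shares. At an unadjusted p under 0.05 in limma, 13 of 19 islet markers were lower and 0 higher, 5 of 15 ductal markers were lower and 1 higher, and 0 of 8 fibroblast and endothelial markers were either. Of 8 listed leukocyte markers 1 was called higher, Ptprc, the gene of Cd45, at 2.74 to 4.33 in tuft and 0 to 1.93 in non-tuft libraries (log2 fold change 2.72, adjusted p = 0.00292, limma), although the gate was Cd45-negative. The summed islet marker level ranged from 150.6 to 2.37e+04 across the non-tuft libraries, where Klk1 stayed between 10.52 and 10.97. The part of these other cell types in the kallikrein values was not tested.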

How the data were processed

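The deposited table, in which the authors give log2 values of RPKM + 1 for 12160 genes, was used as it stands, with 1 column for each of the 10 libraries. Per the labels and the study's methods, the authors mapped 50-base single-end reads to mm9 with HISAT2, quantified genes with StringTie and Ballgown, dropped genes whose RPKM variance was under 1, and then log transformed and quantile normalized the rest. Tool versions are not given in the sources used here. Quantile normalization gives every library the same distribution, so differences in total RNA per cell are not kept. The table also holds the authors' own fold change, p-value and false discovery rate, which were not used. No counts were used, so depth is unknown.

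Groups and replicate numbers came from the sample labels. All listed genes were fitted with lmFit and eBayes of limma 3.58.1 (R 4.3.3), without covariates. A call needed a fold change over 4 together with a Benjamini-Hochberg adjusted p under 0.05. Single values were compared by exact two-sided permutation over 252 regroupings. Coding sequences were aligned with mafft 7.526, and gene positions, transcripts and promoter windows came from the NCBIM37 genome and its annotation. Python 3.11.15 with numpy 2.4.6, pandas 2.3.3 and matplotlib 3.10.9 made the tables and plots.

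The members and all gene lists were chosen with earlier results of these data known. The genes named are all members, the called genes and the 3 of smallest p of each pathway list, the 3 nearest profiles of each called member, the acinar genes with the largest and smallest fall, and Siglecf, Epcam, Dclk1, Krt19 and Ptprc, without some genes that this rule selects and that are not reported here. Genes named beyond this, namely Kng1, Kng2, Ace, Ece1, Serping1, the acinar transcription factors and the neighbors of the cluster, were chosen after their values were seen. Alternatives were the replicate number as a block, 0.1 or 10 added before log2, a filter at a mean log2 value of 2, libraries centred on ribosomal protein genes, trend and robust options of eBayes, leaving out each library, other thresholds, treat, and other references for Klk1. The use of treat on single members and the paired test against the acinar transcription factors were added after seeing the data.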

Additional observations from a re-analysis of the deposited data

Results flagged for a closer look

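Of 30 sets of 5 library values checked for a sample far from the others, 4 were picked out. All of them were kallikrein genes, as were many of the sets checked. The rule picks out about 1 in 20 sets by chance when values are normally distributed. Sets with all 5 values at 0 could not be picked out, so that rate does not apply here. Klk1b5 had its lowest non-tuft value, 5.56, in library 1, while the other 4 non-tuft libraries were at 8.92 to 9.76. In the tuft libraries Klk1b5 was at 7.10 in library 4 and at 0 in the others. Klk1b4 was at 1.52 in tuft library 3 and at 0 in the other tuft libraries. Klk1b24 was at 4.93 in non-tuft library 3 and at the floor in the other non-tuft libraries. For the last 3, the other values are at the floor, so any value above it stands apart by construction.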

How the results depend on the processing

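The number of 4 members called lower was the same under 19 of 20 alternatives, each library left out included (4 to 4), and became 1 when the fold change was tested against 4 with limma's treat. Under treat, a use added after seeing the data, the Klk1 log2 fold change of -4.42 was no longer past the threshold (adjusted p = 0.144), while Klk1b4 was (adjusted p = 1.98e-04). The Klk1 log2 fold change stayed past both thresholds in the other 16 alternatives and ranged from -4.96 to -3.97 with each library left out, that of Klk1b4 from -6.43 to -5.97 and that of Klk1b5 from -8.58 to -6.81. Centring on 80 ribosomal protein genes shifted the median over all genes from 0.02 to 0.82 on the log2 scale, and Klk1 was then at -3.63 and Klk1b4 at -5.33.

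For Klk1 relative to the acinar secretory genes, the difference of -0.01 became -2.34 (exact permutation test, p = 0.0397; exact sign-flip test over same-numbered pairs, p = 0.125, added after seeing the data) with the acinar transcription factors as reference and -0.10 with the mean of the list. With each library left out it ranged from -0.39 to 0.20 and changed sign in 5 of 10 cases. The cause was not tested. Of the 9 acinar transcription factors, 5 were not called. The library medians of all 9 averaged 4.88 in non-tuft and 2.80 in tuft cells, against 11.58 and 7.17 for the secretory genes. The factor median thus differed less between the groups, while Ptf1a and Rbpjl had fitted falls of at least the size of that of Klk1. The kinin system kept 6 called genes without a fold threshold.

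In limma the replicate number as a block changed no call, with adjusted p of 0.00401 for Klk1, 6.87e-04 for Klk1b4, 0.00402 for Klk1b5 and 0.0152 for Klk1b3 and 4 members called. Same-numbered libraries had correlations of 0.0619 to 0.241 between their deviations from the group means, other pairs -0.174 to 0.139, and 7 of 10 libraries correlated best with their own number. The highest, 0.241, was between the libraries numbered 5, which also had the highest fibroblast and endothelial marker sums of their groups. The part of such cells in this correlation was not tested. The labels do not say that a number marks 1 mouse, so the libraries were not treated as paired. Depth is unknown, so values at the floor could not be told from low expression.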
